A study of Mus musculus with 18 samples.

Results

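DNA repair genes were described here in mouse libraries labelled as oocytes of 3 stages, as 41 genes of homologous recombination, the Fanconi anaemia pathway, mismatch repair and base excision repair. The members are the rows whose gene symbol in the TPM table was among these 41 names, and their counts were joined on the Ensembl identifier without its version. Each name matched exactly 1 row, which gives 41 of the 28252 genes with a TPM value (counts per gene length, scaled to a sum of 1000000 per library) and 41 of the 53715 genes with counts.

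Bulk RNA sequencing was done on oocytes from primordial follicles, on oocytes from primary follicles and on oocytes arrested at metaphase II of meiosis (MII). Each stage had 3 libraries labelled sham and 3 labelled NTY, a name the labels do not explain, 18 libraries in all. All mice were of the strain C57Bl/6j x CBA/J, the samples were marked as in vivo, and no age, dose or number of animals was given in the labels, so replicates may differ only technically and libraries may share animals. Oocytes of the follicle stages were cut out by laser microdissection, whose RNA was pooled by stage over the collection caps, amplified with the NuGen Ovation Pico system and captured with TruSeq RNA Access probes, a kit made for human coding exons with no mouse set named in the labels, while RNA of MII oocytes was extracted with PicoPure and amplified by Smart-seq II. The 6 groups are therefore sham and NTY oocytes of primordial follicles, sham and NTY oocytes of primary follicles, and sham and NTY MII oocytes. Between the 12 microdissected and the 6 MII libraries, a difference may come from the stage or from the way the libraries were made, and these cannot be separated.

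An oocyte opens many breaks in its own DNA during fetal life, repairs them by homologous recombination, and then rests in the follicle for a long time before it resumes meiosis. Homologous recombination copies an intact sister or homologue after the broken end is trimmed to a single strand, while the Fanconi pathway unhooks crosslinks between strands, mismatch repair corrects copying errors and base excision repair removes damaged bases. A grown oocyte stores RNA for the time after fertilization, when its own transcription is silent, so its RNA level reflects storage as well as current use.

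The total count was 15149564 to 29205503 in the microdissected and 8652089 to 9978830 in the MII libraries. A count of 0 allows up to 3 counts, which is 0.103 to 0.198 CPM (counts scaled to a library total of 1000000) in the microdissected and 0.301 to 0.347 CPM in the MII libraries. Over the members this floor was a median of 0.0780 TPM and at most 0.560 TPM in the microdissected libraries, and a median of 0.159 TPM and at most 0.810 TPM in the MII libraries. Such floors, and the Poisson intervals given with ratios below, cover counting error only, since reads after amplification are not independent molecules. If the capture probes do not match the mouse sequence of a gene, a low value or a 0 of Palb2, Fancb, Ogg1 or another member in the microdissected libraries may come from the capture, which was not tested.

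Although they were sequenced more deeply, the microdissected libraries held no more of the 41 genes at 10 counts than the MII libraries. At least 10 counts were reached by 14, 25 and 23 members in primordial sham, by 18, 25 and 11 in primordial NTY, by 31, 16 and 34 in primary sham and by 18, 14 and 23 in primary NTY. In MII oocytes the number was 38, 39 and 40 in sham and 36, 34 and 35 in NTY. Every MII library reached at least as many members as the best microdissected library, primary sham replicate 3. The same held for genes in general, with 15.0% to 36.2% of all genes with a TPM value at 10 counts or more in the microdissected and 37.7% to 46.4% in the MII libraries. With at least 1 count, the median was 29 members in the microdissected libraries, or 30 without primordial NTY replicate 3, and 38 members in the MII libraries. There the ranges overlapped, since primary sham replicates 1 and 3 each held 38 members and the NTY MII libraries 37, 34 and 37.

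**Figure D1:**
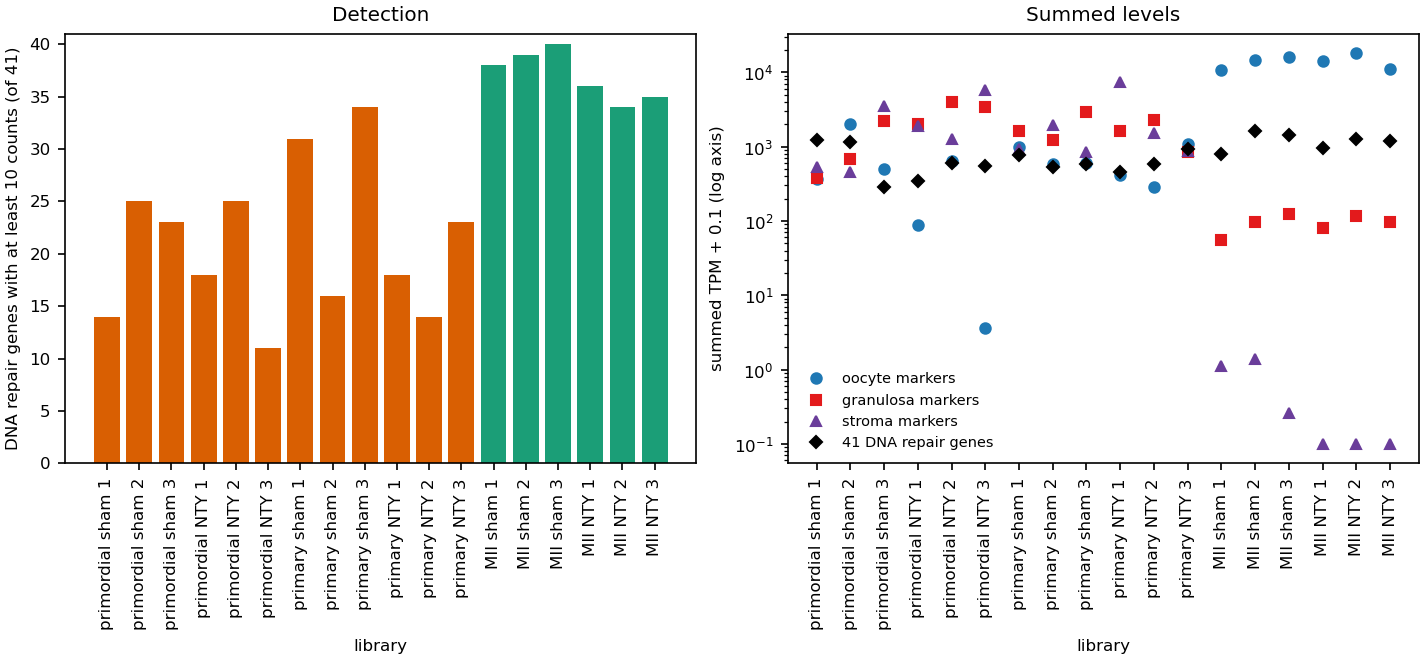
Left, number of the 41 DNA repair genes with at least 10 counts in each library (orange, microdissected; green, MII). Right, summed TPM plus 0.1 on a log axis of the 41 genes and of the oocyte, granulosa and stroma marker lists in each library; the 6 MII libraries reach 34 to 40 genes and the 12 microdissected ones 11 to 34.

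Markers of cell types were read in the same libraries. The summed TPM of 15 oocyte markers was 365, 2026 and 506 in primordial sham, 88.9, 637 and 3.49 in primordial NTY, 996, 579 and 599.8 in primary sham and 411, 283 and 1101 in primary NTY, against 10605 to 18020 in MII oocytes. Primordial NTY replicate 3 stood apart, with 7 oocyte markers at 0 counts (Bmp15, Zp1, Figla, Sohlh1, Oosp1, Ooep and Padi6) and Nobox the most abundant at 1.20 TPM. Of 14 granulosa markers the sum was 380.4 to 3933 TPM in the microdissected libraries, led by Wt1, Inha or Foxl2, and 54.6 to 123 TPM in MII oocytes, led by Esr2 or Cyp19a1, with Foxl2, Amhr2, Wt1 and Fst at 0 counts in all 6 libraries. Of 6 stroma markers the sum was 460.1 to 7486 TPM in the microdissected libraries, led by Col1a1 in 11 of them and by Col1a2 in primordial sham replicate 2, and at most 1.29 TPM in MII oocytes. Markers of endothelium and blood summed to 0 to 174 TPM in the microdissected libraries, the highest from Hba-a1 in primary sham replicate 1, and to 36.8 to 61.7 TPM in the MII libraries, nearly all Pecam1, with Cdh5 and Ptprc at 0 counts there. The 9 genes of dividing cells summed to 129 to 1091 TPM and 573 to 1168 TPM. Over the 12 microdissected libraries the median sum was 542 TPM for oocyte, 1820 TPM for granulosa and 1399 TPM for stroma markers. These libraries thus held much RNA of other cells, and the name oocytes follows the labels. In these bulk samples fewer cells of a type and less RNA per cell cannot be told apart, and the part of other cell types in the levels of the repair genes was not tested.

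Replicates of a microdissected group often disagreed on whether a gene was present at all, among the members as over all genes. Of the members with at least 100 counts in some replicate of a group, some had at most 3 counts in another replicate of the same group. These were 9 of 19 members for primordial sham libraries, 11 of 18 for the NTY libraries of that stage, 12 of 26 for primary sham and 7 of 15 for its NTY libraries. As shares these were 47.4%, 61.1%, 46.2% and 46.7%. The shares over all genes with at least 100 counts in a replicate were 51.4%, 53.6%, 29.0% and 49.1%. The members thus stood near the background in primordial sham and primary NTY, somewhat above it in primordial NTY and well above it in primary sham. In MII oocytes the members so lost were 1 of 33 in sham and 5 of 32 in NTY. These are 3.03% and 15.6%, above the 0.434% and 7.98% of all genes but on few members. The library codes of primary NTY replicates 2 and 3 may name the same material, and the counts do not settle this, since no pair of replicates in any group agreed within sampling noise.

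**Figure D2:**
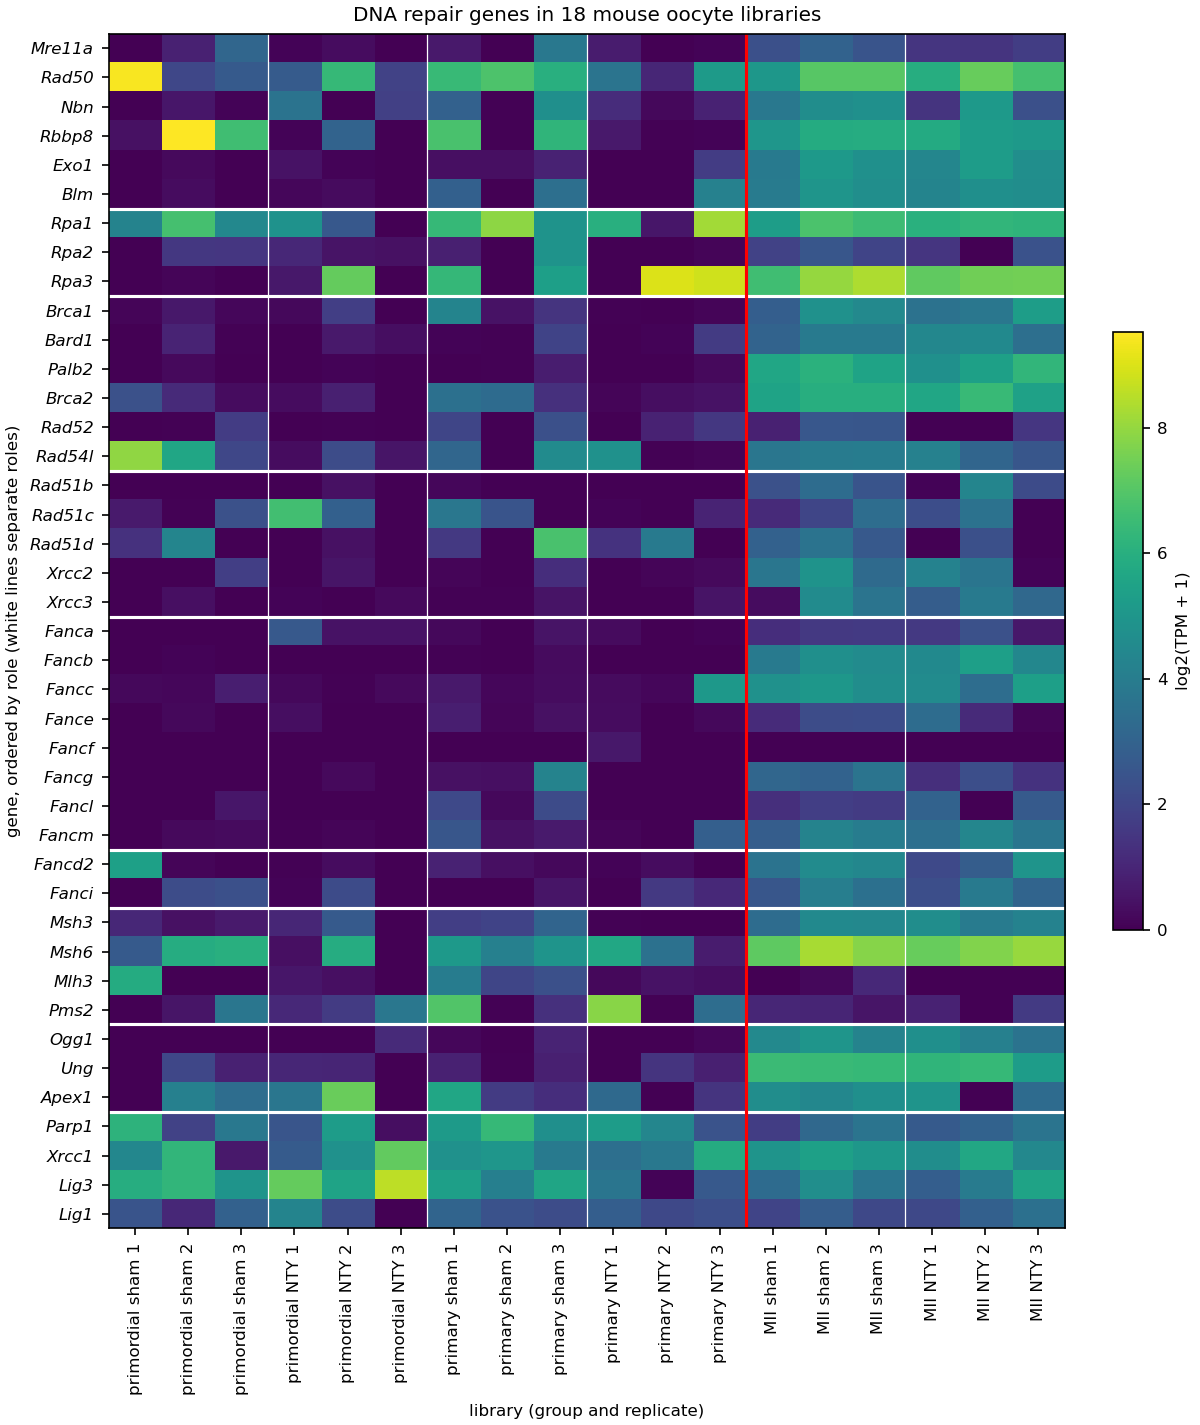
Heat map of log2(TPM + 1) for the 41 DNA repair genes (rows, in order of role, white lines between roles) in the 18 libraries (columns, by group and replicate; the red line separates microdissected from MII libraries). Scattered bright cells beside dark replicates stand on the left, and mostly even rows on the right.

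Levels in MII oocytes were set beside those in the microdissected libraries as a description, without a test. Among the 40 members with at least 1 TPM in at least 3 libraries, all 6 MII values lay above all 12 microdissected values for 9 members, Exo1, Bard1, Palb2, Brca2, Fancb, Msh3, Msh6, Ogg1 and Ung. Over all 14965 such genes the share was 23.3%, so the 9 of 40 members stood near the background. This filter can be met by MII libraries alone. Palb2 and Fancb reached at most 0.678 and 0.208 TPM in microdissected libraries. Exo1, Bard1 and Ogg1 reached 1 TPM in fewer than 3 of them. These members passed only through the MII libraries, so their place above follows in part from the filter, which was the same for all genes. For 0 of the 40 members were all MII values below all microdissected values, beside 2.83% of all genes. The median over the MII libraries was above that over the microdissected libraries for 36 of the 40 members and for 68.7% of all genes, and the exceptions were Mlh3, Pms2, Parp1 and Lig3. The median of these medians was 13.8 TPM in MII and 0.290 TPM in microdissected libraries for the members, and 6.04 TPM and 0.268 TPM for all genes. Palb2, Fancb, Rad51b, Xrcc3 and Fance were under 1 TPM in every microdissected library, and were not the only members that passed through MII libraries alone. The 36 of 40 and these medians therefore restate the filter in part. On CPM in place of TPM, 12 of 40 members lay above, beside 24.7% of all genes, and without primordial NTY replicate 3 on TPM 9 did, beside 23.6%.

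**Figure D3:**
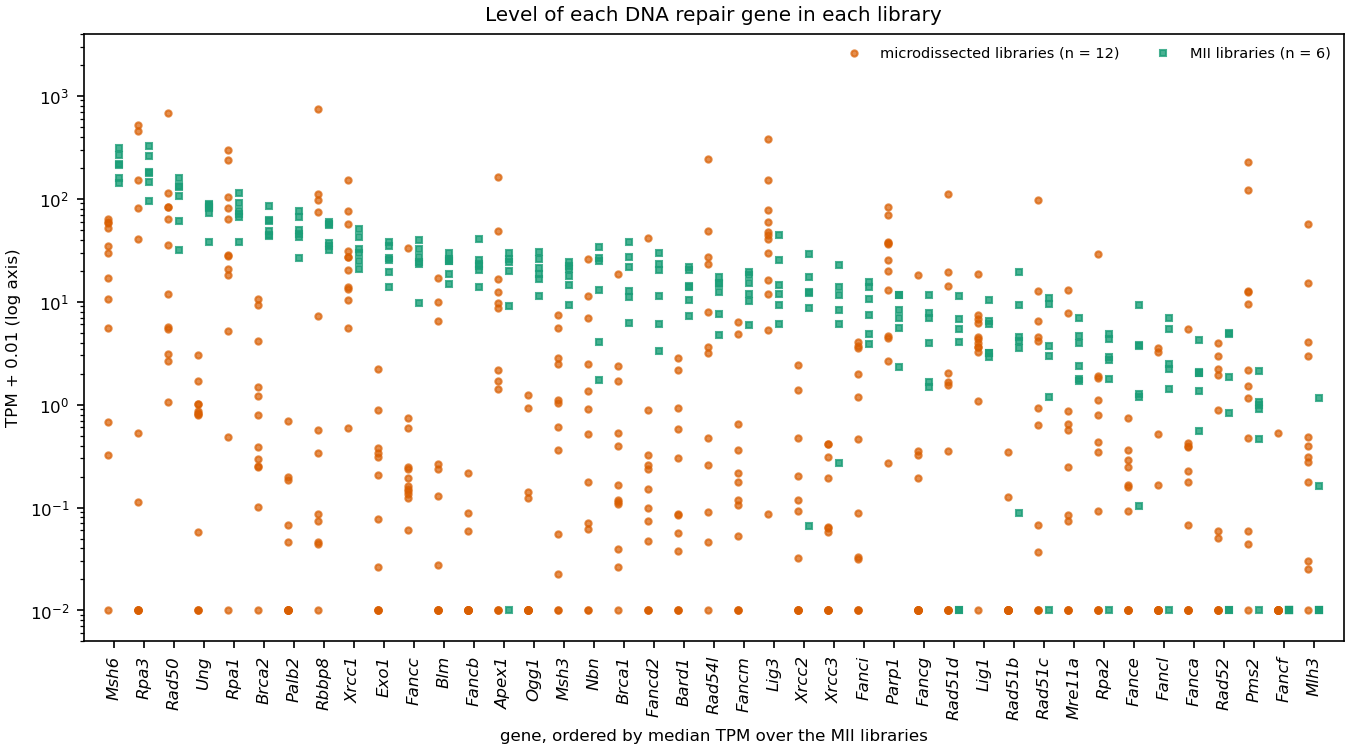
TPM plus 0.01 of each DNA repair gene in each library on a log axis, genes ordered by their median over the MII libraries; orange circles are the 12 microdissected and green squares the 6 MII libraries. Msh6 has the highest MII median, 215 TPM, and the orange points of most genes spread from 0.01, which marks 0 TPM, to the level of the green points or beyond.

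The first step of recombination is the trimming of broken ends. Rad50, the coiled-coil part of the complex that recognises such ends, had a TPM of 681, 3.12 and 5.43 in primordial sham, 5.61, 82.4 and 2.67 in primordial NTY, 83.4, 114 and 63.0 in primary sham, 11.7, 1.04 and 35.4 in primary NTY, 31.7, 132 and 131 in MII sham and 60.2, 159 and 105 in MII NTY. It was counted in every library, and its MII levels lay inside the microdissected range, whose top was primordial sham replicate 1. Mre11a encodes the nuclease of that complex, at a TPM of 0, 0.852 and 7.73 in primordial sham, 0.0755, 0.238 and 0 in primordial NTY, 0.562, 0 and 13.0 in primary sham, 0.637, 0 and 0.0631 in primary NTY, 3.99, 6.99 and 4.60 in MII sham and 1.78, 1.70 and 2.34 in MII NTY. The sham MII libraries were all above the NTY ones for Mre11a, and among microdissected libraries only primordial sham replicate 3 and primary sham replicate 3 exceeded 1 TPM. For Nbn, the adaptor of the complex that calls the kinase ATM, the TPM was 0, 0.510 and 0.0613 in primordial sham, 11.2, 0 and 2.45 in primordial NTY, 6.86, 0.0522 and 25.7 in primary sham, 1.34, 0.166 and 0.887 in primary NTY, 13.1, 24.7 and 26.6 in MII sham and 1.73, 33.8 and 4.07 in MII NTY. NTY replicates 1 and 3 were the lowest of the MII libraries for Nbn while NTY replicate 2 was the highest, so the groups overlapped. Rbbp8 encodes CtIP, the cofactor that switches on trimming, and its TPM was 0.329, 735 and 96.2 in primordial sham, 0.0771, 7.22 and 0 in primordial NTY, 109.9, 0.0342 and 74.8 in primary sham, 0.553, 0.0362 and 0.0645 in primary NTY, 31.5, 57.3 and 59.1 in MII sham and 55.2, 37.2 and 34.8 in MII NTY. Over 70 TPM of Rbbp8 was found in 4 of the 6 microdissected sham libraries and in 0 of the 6 NTY libraries, but the remaining sham libraries lay within the NTY range. That level was chosen after the values were seen, and the share of all genes with such a split was not taken.

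Exo1 and Blm are an exonuclease and a helicase that lengthen the single strand. Exo1 ranged from 0 to 2.22 TPM (median 0.131) in microdissected libraries and from 13.9 to 37.8 TPM (median 25.8) in MII oocytes, with no overlap. Blm was at 6.51 and 10.01 TPM in primary sham replicates 1 and 3, below its MII range of 14.8 to 30.0 TPM, and at 17.1 TPM in primary NTY replicate 3, inside it. Its microdissected median was 0.0683 TPM.

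Replication protein A, a trimer, coats the single strand. Its smallest subunit Rpa3 had a TPM of 0, 0.103 and 0 in primordial sham, 0.525, 153 and 0 in primordial NTY, 80.5, 0 and 40.8 in primary sham, 0, 522 and 452 in primary NTY, 95.4, 259.7 and 322 in MII sham and 146, 177 and 181 in MII NTY. It was close to 0 in all primordial sham libraries, abundant in all MII libraries, and in primary NTY replicates 2 and 3 higher than in any MII library while replicate 1 of that group held none. The middle subunit Rpa2 had a TPM of 0, 1.88 and 1.82 in primordial sham, 1.10, 0.424 and 0.339 in primordial NTY, 0.774, 0 and 29.1 in primary sham, 0, 0 and 0.0834 in primary NTY, 2.69, 4.84 and 2.87 in MII sham and 1.76, 0 and 4.33 in MII NTY. Rpa2 was low in MII oocytes, and primary sham replicate 3 was far above the other 17 libraries. The large subunit Rpa1 was at 0 to 297 TPM (median 28.1) in microdissected libraries and 38.4 to 113 TPM (median 73.6) in MII oocytes. Its only 0 was in primordial NTY replicate 3, the library lowest in oocyte markers, where only 14 of the 41 members had a count.

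The mediators place the recombinase on the strand. Brca1, a ubiquitin ligase that starts this branch, had a TPM of 0.0994, 0.523 and 0.109 in primordial sham, 0.157, 2.38 and 0 in primordial NTY, 18.5, 0.387 and 1.68 in primary sham, 0.0295, 0.0164 and 0.102 in primary NTY, 6.13, 27.3 and 21.6 in MII sham and 11.0, 12.7 and 38.2 in MII NTY. Apart from primary sham replicate 1, every microdissected library was below every MII library for Brca1. Palb2, the bridge from Brca1 to Brca2, had a TPM of 0, 0.176 and 0 in primordial sham, 0, 0.0576 and 0 in primordial NTY, 0, 0.0360 and 0.678 in primary sham, 0, 0 and 0.187 in primary NTY, 49.2, 66.9 and 45.2 in MII sham and 26.3, 42.1 and 75.6 in MII NTY. Palb2 held at most 40 counts in any microdissected library, and its lowest MII value was 38.9 times its highest microdissected value, which primary sham replicate 3 alone set. Bard1, the partner of Brca1, went from at most 2.81 TPM (median 0.0754) to 7.19 to 21.9 TPM (median 14.0) in MII oocytes. Brca2, the loader itself, went from at most 10.6 TPM (median 0.580) to 42.9 to 84.8 TPM (median 54.6). Of Rad52, which anneals single strands, the TPM was 0, 0.0408 and 2.21 in primordial sham, 0, 0.0490 and 0 in primordial NTY, 2.97, 0 and 3.98 in primary sham, 0, 0.875 and 1.91 in primary NTY, 0.823, 4.94 and 4.80 in MII sham and 0, 0 and 1.84 in MII NTY. It was low throughout and at 0 in 2 of the 3 NTY MII libraries. Rad54l, a motor protein that helps the strand to invade, had a TPM of 244, 48.5 and 3.12 in primordial sham, 0.252, 3.60 and 0.461 in primordial NTY, 7.87, 0 and 23.4 in primary sham, 27.4, 0.0363 and 0.0810 in primary NTY, 12.5, 14.7 and 15.2 in MII sham and 17.2, 7.62 and 4.78 in MII NTY. Its highest levels were in primordial sham replicates 1 and 2, above all MII libraries, and its lowest was 0 in primary sham replicate 2.

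The paralogs of the recombinase, which steady its filament, were uneven among MII oocytes. Rad51c had a TPM of 0.629, 0.0268 and 4.18 in primordial sham, 97.7, 6.53 and 0 in primordial NTY, 12.6, 4.53 and 0 in primary sham, 0.0574, 0 and 0.911 in primary NTY, 1.19, 2.98 and 9.51 in MII sham and 3.74, 10.9 and 0 in MII NTY. Primordial NTY replicate 1 alone held most of the Rad51c signal, and an MII library was at 0. Rad51d had a TPM of 1.54, 19.3 and 0 in primordial sham, 0, 0.342 and 0 in primordial NTY, 2.03, 0 and 110.4 in primary sham, 1.66, 14.0 and 0 in primary NTY, 6.82, 11.4 and 5.37 in MII sham and 0, 4.03 and 0 in MII NTY. All sham MII libraries were above all NTY ones for Rad51d, of which replicates 1 and 3 had 0 counts. Rad51b, Xrcc2 and Xrcc3 were at most 0.338, 2.41 and 0.408 TPM in microdissected libraries, with MII medians of 4.36, 12.2 and 9.92 TPM. Each of these genes had an MII library near the floor, at 1 count for Rad51b in NTY replicate 1, 1 count for Xrcc2 in NTY replicate 3 and 3 counts for Xrcc3 in sham replicate 1, so none was free of overlap.

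The Fanconi core complex is the ubiquitin ligase that marks a crosslink. Fancl, its catalytic subunit, had a TPM of 0, 0 and 0.507 in primordial sham, 0, 0 and 0 in primordial NTY, 3.26, 0.157 and 3.50 in primary sham, 0, 0 and 0 in primary NTY, 1.40, 2.44 and 2.18 in MII sham and 6.94, 0 and 5.42 in MII NTY. Fancl had 0 counts in all primary NTY and all primordial NTY libraries and was counted in all primary sham libraries. Fanca, which with Fancg forms a scaffold of the complex, had a TPM of 0, 0 and 0 in primordial sham, 5.38, 0.386 and 0.376 in primordial NTY, 0.165, 0 and 0.412 in primary sham, 0.215, 0 and 0.0570 in primary NTY, 1.35, 2.01 and 2.07 in MII sham and 2.00, 4.21 and 0.538 in MII NTY. Fanca had 0 counts in all primordial sham libraries and was counted in all primordial NTY ones, with replicate 1 more than 10 times the others. For Fancg the TPM was 0, 0 and 0 in primordial sham, 0, 0.186 and 0 in primordial NTY, 0.343, 0.314 and 17.96 in primary sham, 0, 0 and 0 in primary NTY, 7.80, 6.96 and 11.6 in MII sham and 1.46, 3.94 and 1.63 in MII NTY. Fancg was high only in primary sham replicate 3 among microdissected libraries, and in MII oocytes all sham values were above all NTY values. Fancb, another scaffold of the ligase and an X-linked gene, had a TPM of 0, 0.0787 and 0 in primordial sham, 0, 0 and 0 in primordial NTY, 0.0485, 0 and 0.208 in primary sham, 0, 0 and 0 in primary NTY, 14.0, 25.6 and 23.4 in MII sham and 22.1, 40.3 and 20.1 in MII NTY. It held at most 5 counts in any microdissected library and at least 176 in any MII library, and its lowest MII value was 67.0 times its highest microdissected value, again from primary sham replicate 3 alone. Fancm, the translocase that brings the complex to a stalled fork, had a TPM of 0, 0.169 and 0.208 in primordial sham, 0.0429, 0.108 and 0 in primordial NTY, 4.87, 0.355 and 0.631 in primary sham, 0.0964, 0 and 6.38 in primary NTY, 5.96, 18.2 and 15.2 in MII sham and 10.1, 19.5 and 11.9 in MII NTY. Primary sham replicate 1 and primary NTY replicate 3 were near the low end of the MII range for Fancm, and the other microdissected libraries were under 1 TPM.

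Among the remaining core subunits, Fancc was at most 0.725 TPM in 11 microdissected libraries and 33.0 TPM in primary NTY replicate 3, with an MII range of 9.64 to 40.1 TPM. Fance reached 0.728 TPM and 9.28 TPM. Fancf was the member that failed the level filter, with 7 counts in primary NTY replicate 1 and 0 counts in the other 17 libraries. Of the clamp that the complex marks, Fanci had a TPM of 0, 3.66 and 4.06 in primordial sham, 0.0775, 3.51 and 0.0220 in primordial NTY, 0, 0.0229 and 0.452 in primary sham, 0, 1.96 and 1.17 in primary NTY, 4.88, 15.6 and 10.6 in MII sham and 3.90, 13.9 and 7.40 in MII NTY. All MII libraries but NTY replicate 1 were above all microdissected ones for Fanci, that library lying under the top value of primordial sham. Its partner Fancd2 was at 41.8 TPM in primordial sham replicate 1 and at most 0.875 TPM in the other microdissected libraries, against 3.32 to 29.7 TPM (median 15.8) in MII oocytes.

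In mismatch repair, Msh6, the subunit that reads single mispairs, had the highest median of the members in MII oocytes, with a TPM of 5.48, 58.2 and 63.6 in primordial sham, 0.316, 58.8 and 0 in primordial NTY, 34.4, 16.9 and 29.6 in primary sham, 51.7, 10.7 and 0.675 in primary NTY, 143, 309.8 and 219 in MII sham and 159, 212 and 263 in MII NTY. It was above every microdissected library in every MII library, and its microdissected levels ran from 0 to 63.6 TPM. Msh3, which reads larger loops, had a TPM of 1.09, 0.355 and 0.594 in primordial sham, 1.03, 5.48 and 0 in primordial NTY, 2.44, 2.82 and 7.44 in primary sham, 0.0447, 0.0124 and 0 in primary NTY, 9.30, 22.1 and 20.5 in MII sham and 24.3, 14.5 and 17.9 in MII NTY. The primary NTY libraries were the lowest group for Msh3, below all primary sham libraries. Mlh3, a nuclease subunit needed for meiotic crossovers, had a TPM of 56.8, 0.0155 and 0.0206 in primordial sham, 0.474, 0.298 and 0 in primordial NTY, 15.1, 2.98 and 4.03 in primary sham, 0.167, 0.389 and 0.264 in primary NTY, 0, 0.150 and 1.14 in MII sham and 0, 0 and 0 in MII NTY. Mlh3 went the other way from most members, with 0 counts in all NTY MII libraries and at least 170 in all primary sham libraries. Pms2, the corresponding nuclease subunit of general mismatch repair, ranged from 0 to 228 TPM (median 1.82) in microdissected libraries and from 0 to 2.11 TPM (median 0.940) in MII oocytes.

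In base excision repair, Ogg1 removes oxidised guanine, and its TPM was 0, 0 and 0 in primordial sham, 0, 0 and 1.22 in primordial NTY, 0.132, 0 and 0.910 in primary sham, 0, 0 and 0.114 in primary NTY, 21.3, 30.1 and 18.4 in MII sham and 26.1, 16.7 and 11.5 in MII NTY. Ogg1 had 0 counts in 8 of 12 microdissected libraries and 85 to 232 counts in MII oocytes, without overlap. Ung, which removes uracil, was at most 3.03 TPM (median 0.811) in microdissected libraries and 37.6 to 88.0 TPM (median 81.7) in MII oocytes. The nuclease Apex1, which cuts the strand at the site without a base that such enzymes leave, had a TPM of 0, 16.7 and 9.72 in primordial sham, 12.5, 161 and 0 in primordial NTY, 49.1, 2.14 and 1.40 in primary sham, 8.58, 0 and 1.67 in primary NTY, 24.5, 20.0 and 25.9 in MII sham and 29.6, 0 and 9.12 in MII NTY. Apex1 was detected in 9 microdissected and 5 MII libraries and overlapped throughout.

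The last members seal breaks in 1 strand. Lig3, the ligase of this path, had a TPM of 60.0, 76.9 and 29.7 in primordial sham, 152, 44.8 and 384 in primordial NTY, 40.7, 16.2 and 47.4 in primary sham, 11.9, 0.0768 and 5.26 in primary NTY, 9.16, 25.2 and 11.9 in MII sham and 6.11, 14.5 and 44.9 in MII NTY. The primordial NTY libraries were above all primary NTY ones for Lig3, and the highest value came from primordial NTY replicate 3, the library with the lowest sum of oocyte markers. Its scaffold Xrcc1 had at least 22 counts in all 18 libraries, at 0.586 to 150.3 TPM (median 23.7) in microdissected libraries and 20.7 to 51.0 TPM (median 31.04) in MII oocytes. Parp1, the sensor that binds such breaks, had 0.264 to 82.9 TPM (median 22.7) and 2.33 to 11.6 TPM (median 7.58). Lig1, the ligase of replication, had 0 to 18.5 TPM (median 4.11) and 2.88 to 10.4 TPM (median 4.57).

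Tests were made with edgeR within each library method, with p-values adjusted over all genes tested. In the fit of the 12 microdissected libraries 33 of the 41 members passed the filter on low counts, the others being Palb2, Rad51b, Xrcc3, Fancb, Fance, Fancf, Fancg and Ogg1. In the MII fit 39 passed, the others being Fancf and Mlh3. The labels do not tie libraries to animals, so these p-values measure only the spread between libraries, and if libraries of a group share animals they are too small.

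NTY was first compared with sham in oocytes of primordial follicles. 0 of the 33 members tested had an edgeR adjusted p under 0.05, beside 0.0095% of the 10522 genes (1 gene). At an unadjusted p under 0.05 there were 3 members, beside 10.9% of all genes. DESeq2 gave 6 of 33 members at an adjusted p under 0.05, beside 11.4% of all genes, or 4 with its Cook filter, beside 7.13%. These were Rad54l, Rpa3, Fanca and Rbbp8 and, without the Cook filter, Mlh3 and Fancd2, the last named after its values were seen. Limma with voom gave 0 of 33 members, beside 0% of all genes. Limma on log2(TPM + 1) gave 0 of 24, beside 0.0107%. The latter tested 24 members in every comparison of microdissected libraries and 38 in MII oocytes. The median log2 fold change of the members tested was -1.11, against 0.12 for all genes; it was -1.10 with genes at 0 in a group set to their bound, -0.93 without primordial NTY replicate 3, -1.65 without NTY replicate 2, -0.47 without sham replicate 1 and -0.28 with voom. In the same libraries oocyte markers summed to 365, 2026 and 506 TPM in sham and 88.9, 637 and 3.49 TPM in NTY, and granulosa markers to 380.4, 671 and 2223 TPM in sham and 2022, 3933 and 3451 TPM in NTY, and their part in the result was not tested. For Fanca the NTY mean was at least 37.0-fold above the mean of the 3-count floors of the sham libraries, mostly from NTY replicate 1, and its edgeR adjusted p was 0.405. The 3 NTY values of Fanca did not overlap the sham values, 1 of the 33 members, beside 7.98% of all genes. Rpa3 held 1 count over the 3 sham libraries, a ratio of pooled CPM of 1105 (exact Poisson 95% interval of that count 198 to 43630) nearly all from NTY replicate 2, with an edgeR adjusted p of 0.409. For Rbbp8 the log2 fold change was -7.13 ± 3.29 (SE, n = 3 against 3) with an edgeR adjusted p of 0.428, with overlap.

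The same comparison in oocytes of primary follicles gave 0 of 33 members by edgeR, beside 0% of all genes (0 genes). The numbers at an unadjusted p under 0.05 were 3 members, all lower in NTY, beside 8.15% of all genes, of which 782 of 858 were lower. DESeq2 gave 5 of 33 members, beside 6.59% of all genes, or 3 with its Cook filter, beside 4.50%. These were Brca1, Msh3 and Rbbp8 and, without the Cook filter, Rpa2 and Fancc, the last named after its values were seen. Both limma fits gave 0 members, beside 0.637% of all genes with voom and 0.0321% on log2(TPM + 1). The median log2 fold change was -0.86 for the members and -0.10 for all genes. That median was -2.22 without primary NTY replicate 3, 0.08 without primary sham replicate 3 and -1.11 once replicates 2 and 3 of primary NTY were added up. Groups did not overlap for 7 of the members tested, beside 14.9% of all genes, and all 7, namely Rad50, Brca1, Brca2, Fancl, Msh3, Mlh3 and Lig3, were lower in NTY. Of all genes without overlap 1438 of 1569 were lower in NTY too. Fancl was at least 19.9-fold lower in NTY, taking the mean of the NTY floors, with an edgeR adjusted p of 0.500. Rbbp8 had a log2 fold change of -7.47 ± 3.34 (SE, n = 3 against 3) with an edgeR adjusted p of 0.521. Rpa2 held 2 counts over the 3 NTY libraries, and its pooled CPM was 369 times higher in sham (exact Poisson 95% interval of those counts 102 to 3051), nearly all of it from sham replicate 3, with an edgeR adjusted p of 0.544. The summed stroma markers were 932, 1937 and 857 TPM in primary sham and 7486, 1539 and 885 TPM in NTY, which overlapped, and the share of genes with at least 10 counts was 26.4% to 36.2% in primary sham and 18.7% to 26.6% in primary NTY. The part of these differences in the members' values was not tested.

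The difference of the NTY effect between primary and primordial follicles was tested in the same fit. 0 of 33 members passed by edgeR, beside 0.0095% of all genes, with 1 member at an unadjusted p under 0.05, beside 11.8% of all genes. DESeq2 gave 2 of 33 members, beside 11.6% of all genes, or 1 with its Cook filter, beside 7.05%. The first were Fanca and Msh3, of which Msh3 kept its call with the filter. Both limma fits gave 0 members, beside 0.219% of all genes with voom and 0.0107% on log2(TPM + 1). The median over the members was 0.37 and over all genes -0.56. Without primordial sham replicate 2 it was -1.43, without primary NTY replicate 3 it was -1.15, and without primordial NTY replicate 2 it was 1.35. With voom and every library kept it was negative too. Of 21 alternatives 12 kept its sign, which therefore rested on single libraries and on the method. The smallest adjusted p among the members was 0.276, for Fanca, with 0.448 for Msh3 at a difference of -8.64 ± 4.45 (SE) and 0.495 for Brca1 at a difference of -7.92 ± 4.32 (SE).

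MII oocytes gave the more even data for the comparison of NTY with sham. The members' median standard error was 0.63 on the log2 scale there, against 2.80 for the comparison in primordial follicles. 0 of the 39 members tested passed by edgeR, beside 0% of the 12209 genes (0 genes), and 1 member had an unadjusted p under 0.05, beside 2.29% of all genes. DESeq2 and both limma fits gave 0 members, DESeq2 beside 0.238% of all genes. The median log2 fold change was -0.09 for the members and 0.00 for all genes, with 19 members positive and 20 negative. It was -0.30 with voom, 0.09 without NTY replicate 1 and 0.05 without sham replicate 2. Groups did not overlap for 4 members, beside 7.56% of all genes, and Mre11a, Rad51d, Fancg and Ung were all lower in NTY. Of all genes without overlap 670 of 917 were lower in NTY as well. Ung, named after its values were seen, was at 88.0, 86.7 and 82.2 TPM in sham and 73.3, 81.2 and 37.6 TPM in NTY, and its groups overlapped on CPM. Fancg had a log2 fold change of -1.93 ± 0.75 (SE, n = 3 against 3) with an edgeR adjusted p of 1. For Mre11a it was -1.34 ± 0.70 (SE, n = 3 against 3) with an edgeR adjusted p of 1. Rad51d, at 0 counts in NTY replicates 1 and 3, had -2.65 ± 1.69 (SE, n = 3 against 3) with an edgeR adjusted p of 1. NTY replicate 2 was the only NTY library that held it, so a fold fitted without that library measures no level and is not given. Oocyte markers summed to 10605 to 16182 TPM in sham and 11065 to 18020 TPM in NTY, so these groups overlapped. Stroma markers summed to 1.01, 1.29 and 0.158 TPM in sham and 0 TPM in all NTY libraries, without overlap but near the floor. At 10 counts or more were 1, 1 and 0 of the 6 stroma markers in the sham libraries. Genes with at least 10 counts made up 42.7%, 46.4% and 43.8% in MII sham and 40.2%, 39.4% and 37.7% in MII NTY, without overlap, and the part of these in the members' values was not tested.

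**Figure D4:**
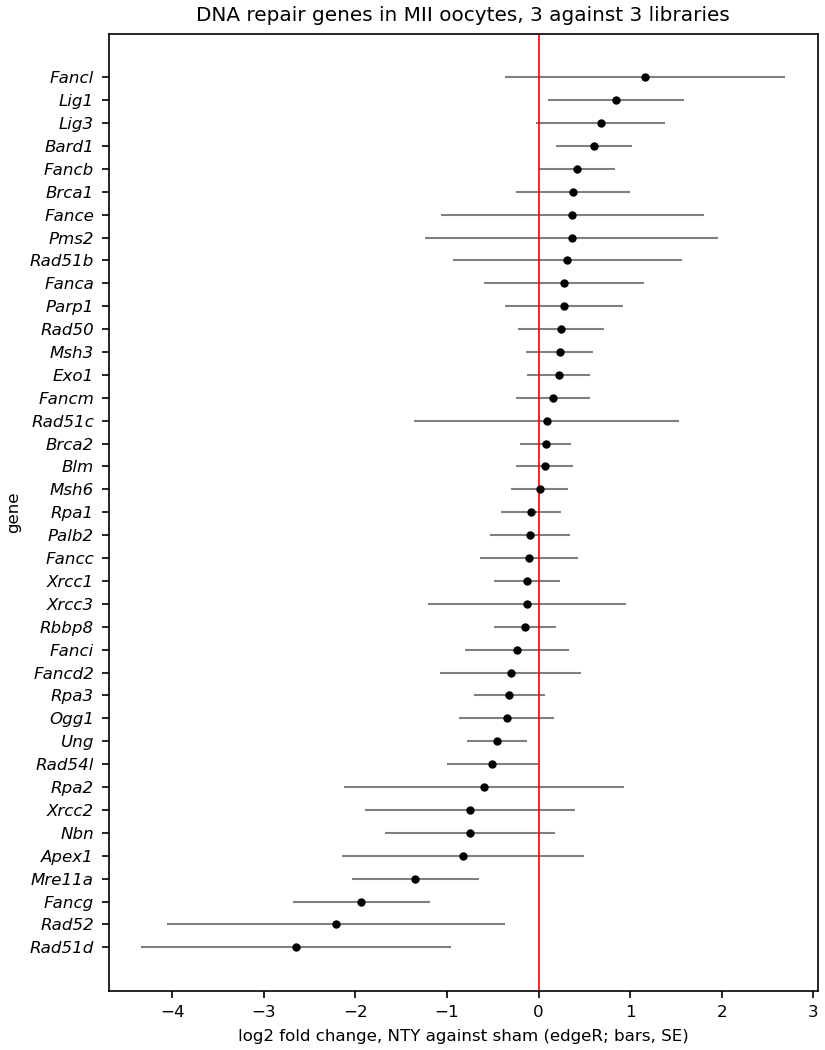
Log2 fold change of NTY against sham in MII oocytes for the 39 DNA repair genes tested, from edgeR with 3 against 3 libraries; bars are standard errors and the red line marks 0. Rad51d and Fancg lie at the low end, at -2.65 and -1.93, and no gene had an adjusted p under 0.05.

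Primary follicles were compared with primordial ones within each treatment, and these comparisons share libraries with those above. In sham, 0 of 33 members passed by edgeR, beside 0.0095% of all genes, with 2 members at an unadjusted p under 0.05, beside 9.28% of all genes. DESeq2 gave 1 of 33 members, Rpa3, beside 7.29% of all genes, and the same with its Cook filter, beside 4.78%. Both limma fits gave 0 members, beside 1.36% of all genes with voom and 0.0428% on log2(TPM + 1). The median log2 fold change was 1.20 for the members and 0.29 for all genes, with 21 positive and 12 negative, and the median was 0.26 without primary sham replicate 3. Of the members tested, Exo1, Fancm and Msh3 did not overlap and were higher in primary follicles, 3 beside 15.1% of all genes, of which 1454 of 1589 were higher. Exo1, named after its values were seen, was at 0, 0.195 and 0 TPM in primordial and 0.327, 0.298 and 0.871 TPM in primary sham. Rpa3 had a ratio of pooled CPM of 941 (exact Poisson 95% interval 169 to 37156) over the 1 count in primordial sham, with an edgeR adjusted p of 0.482. Fanca was at least 3.48-fold higher in primary sham than the mean floor of primordial sham, with an edgeR adjusted p of 0.535, and this came mostly from primary sham replicate 3, with replicate 2 at 0. Nbn had a log2 fold change of 5.39 ± 3.24 (SE, n = 3 against 3) with an edgeR adjusted p of 0.696. Summed oocyte markers were 579 to 996 TPM in primary and 365 to 2026 TPM in primordial sham, which overlapped. Genes with at least 10 counts were 17.8%, 24.2% and 24.4% in primordial sham and 34.6%, 26.4% and 36.2% in primary sham, without overlap, and the part of this in the members' values was not tested.

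In NTY, 0 of 33 members passed by edgeR, beside 0% of all genes, with 1 member at an unadjusted p under 0.05, beside 9.97% of all genes. DESeq2 gave 3 of 33 members, beside 10.7% of all genes, or 2 with its Cook filter, beside 6.55%. Both limma fits gave 0 members, beside 0.019% of all genes with voom and 0% on log2(TPM + 1). Lig3 and Msh3 were called by DESeq2 either way and Fancc, named after its values were seen, only without the filter. The median log2 fold change was 0.48 for the members and 0.08 for all genes, and 0.545 for the members without Fancl, which had 0 counts in both groups. It was 2.13 without primordial NTY replicate 2, 0.13 without primordial NTY replicate 3 and -0.29 without primary NTY replicate 3. Rpa2, Fanca and Lig3 did not overlap and were lower in primary follicles, 3 members beside 7.44% of all genes, of which 542 of 781 were lower. Lig3 had a log2 fold change of -5.32 ± 2.35 (SE, n = 3 against 3) with an edgeR adjusted p of 0.453. Rad52 held 2 counts over the primordial NTY libraries, and its ratio of pooled CPM in primary to primordial NTY was 62.8 (exact Poisson 95% interval of those counts 17.4 to 519), mostly from primary NTY replicate 3 and with 0 counts in replicate 1, with an edgeR adjusted p of 0.553. For Msh3 the log2 fold change was -6.24 ± 3.45 (SE, n = 3 against 3) with an edgeR adjusted p of 0.555. Oocyte markers summed to 283 to 1101 TPM in primary and 3.49 to 637 TPM in primordial NTY, which overlapped, and genes with at least 10 counts were 18.7% to 26.6% and 15.0% to 32.1%.

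A list of 71 other repair genes was read for comparison. By edgeR 0 of the 54 tested in microdissected libraries and 0 of the 60 tested in MII oocytes had an adjusted p under 0.05 in any of the 6 comparisons. An unadjusted p under 0.05 was found for 7, 2, 3, 5, 7 and 5 of them. The order is the primordial, primary and MII comparisons of NTY, the stage comparisons in sham and in NTY, and the difference. The shares over all genes were 10.9%, 8.15%, 2.29%, 9.28%, 9.97% and 11.8% in that order. The smallest in 4 of the 6 comparisons was Ercc2, a helicase of nucleotide excision repair, at 0, 0.169 and 0 TPM in primordial sham, 0.215, 4.02 and 444 in primordial NTY, 0.555, 14.0 and 20.0 in primary sham and 0, 0 and 0 in primary NTY. Its edgeR adjusted p for the difference of the NTY effect was 0.153, and its highest value came from primordial NTY replicate 3, where oocyte markers were lowest. Top3a, a topoisomerase that works with Blm, was at 2.37, 4.51 and 4.67 TPM in sham and 0, 0 and 0.0641 TPM in NTY MII oocytes, with an edgeR adjusted p of 0.877. Fen1, the flap nuclease, had 0 counts in all primordial sham libraries and 34.3, 4.15 and 45.0 TPM in primary sham, with an edgeR adjusted p of 0.473. All MII values lay above all microdissected values for 20 of the 64 genes of this list that passed the level filter, beside 23.3% of all genes, and below for Ddb1. Here too the filter can be met by MII libraries alone.

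The members lie on 14 chromosomes in GENCODE M21 (GRCm38). For 23 of the 41, annotated exons overlap those of another gene, by over 10% of the exon bases for 9, and the strand setting of the counting was not given, so reads of such pairs cannot be told apart. Apex1 shares 61.7% of its exon bases with Pip4p1 on the opposite strand, Lig3 25.1% with Rffl and Fancc 18.6%. The values of Fanca, Fancl, Fanci, Rad54l, Fancf and Ogg1 carry the same uncertainty, at 10.5% to 16.0%.

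Promoters were read for what the rule of choice did not use. RefSeq (GRCm38.p6) gave 40 windows of 300 bases, from 250 bases before to 50 bases after the start of transcription, for 34 of the 41 members. Their median GC content was 60.2%, against 52.7% over all 32851 windows. The E2F motif TTTCCCGC or TTTGGCGC, on either strand, was in 6 of 40 windows, against 1.56% of all windows, in Bard1, Fancg, Brca2, Rad51c, Msh3 and Msh6. The GC box GGGCGG was in 70.0% of the members' windows and 35.7% of all, the CCAAT box in 62.5% and 37.4%, the antioxidant response element TGACNNNGC in 20.0% and 12.4% and the NRF1 core CGCATGCG in 2.5% and 1.87%. The GC content was not matched, and a match of letters is a description and not a site. An E2F match was found for 6 of the 34 members with a window. Of these 34 members, 8 lay above all microdissected libraries in MII oocytes, and 4 of the 8 had a match. The share among all genes lying above was not taken, and a link with the MII level was not tested. The sequences below belong to these 4 members. Capitals mark the E2F letters, which overlapped none of the other motifs in these windows. They are Bard1 (chr1:71102923-71103222, minus strand), Brca2 (chr5:150522371-150522670, plus strand), Msh3 (chr13:92354954-92355253, minus strand) and Msh6 (chr17:87974800-87975099, plus strand), each written 5′ to 3′.
Bard1: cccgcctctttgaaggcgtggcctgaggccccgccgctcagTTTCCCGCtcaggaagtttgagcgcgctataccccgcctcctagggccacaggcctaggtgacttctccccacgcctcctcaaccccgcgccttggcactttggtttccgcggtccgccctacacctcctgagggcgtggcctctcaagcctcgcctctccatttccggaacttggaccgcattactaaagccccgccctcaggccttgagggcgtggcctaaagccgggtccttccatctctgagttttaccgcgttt
Brca2: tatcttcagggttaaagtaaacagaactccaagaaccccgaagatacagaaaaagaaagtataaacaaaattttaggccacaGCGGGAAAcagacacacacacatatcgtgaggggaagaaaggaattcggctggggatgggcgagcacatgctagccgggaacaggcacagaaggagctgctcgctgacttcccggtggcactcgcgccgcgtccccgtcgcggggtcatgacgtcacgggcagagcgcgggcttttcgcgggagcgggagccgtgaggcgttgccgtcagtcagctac
Msh3: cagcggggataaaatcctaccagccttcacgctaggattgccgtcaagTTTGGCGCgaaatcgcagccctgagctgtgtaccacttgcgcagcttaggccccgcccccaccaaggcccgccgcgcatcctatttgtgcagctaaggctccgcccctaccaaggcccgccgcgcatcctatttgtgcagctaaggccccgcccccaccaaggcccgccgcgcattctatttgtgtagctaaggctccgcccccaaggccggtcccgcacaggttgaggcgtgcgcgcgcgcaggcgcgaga
Msh6: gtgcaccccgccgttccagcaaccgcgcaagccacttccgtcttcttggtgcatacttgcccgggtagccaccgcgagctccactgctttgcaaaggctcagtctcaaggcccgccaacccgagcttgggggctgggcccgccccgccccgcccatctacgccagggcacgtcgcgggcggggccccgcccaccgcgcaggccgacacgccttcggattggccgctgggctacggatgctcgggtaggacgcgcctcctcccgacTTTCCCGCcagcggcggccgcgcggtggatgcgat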

How the data were processed

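RNA of 18 libraries was measured, 3 for each of 6 groups. Per the submitters' processing notes, reads were trimmed with Trim Galore 0.4.1, aligned to mm10 with TopHat2 and counted per gene with featureCounts. The deposited counts are whole reads per gene and the deposited TPM values are counts over gene length, scaled to 1000000 per library; 25463 genes with counts had no TPM value. Libraries held 8652089 to 29205503 counts.

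Counts were tested with edgeR 4.0.16 (TMM, filterByExpr, robust quasi-likelihood fit) in R 4.3.3, with the 12 microdissected libraries in a fit of their own and the 6 MII libraries in another, since their library methods differ. The tests were NTY against sham at each of the 3 stages, primary against primordial follicles in sham and in NTY, and the difference of the NTY effect between these stages, at an adjusted p of 0.05. The fits were also run on simulated counts of far less spread than these libraries. That run does not show the power or error of the tests here. MII and microdissected libraries were set side by side without a test, for genes with at least 1 TPM in at least 3 libraries. A floor of 3 counts stood for a count of 0, as the limit that a Poisson count of 0 allows at 95%.

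Alternatives were RLE normalization, a filter on any count, at least 10 counts in every library, only the groups compared, a replicate block, DESeq2 1.42.0 with and without its Cook filter, voom with quality weights and limma 3.58.1 on log2(TPM + 1), each library left out in turn, and primary NTY replicates 2 and 3 summed. The detection count without primordial NTY replicate 3, the overlap of groups on CPM and the 70 TPM level for Rbbp8 were chosen after seeing the data. The members and the marker and gene lists were chosen with earlier results of these data known.

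Values in every library are printed for the member with the highest median TPM in each role, for the 3 members with the smallest unadjusted p in each comparison, and for members with at most 3 counts in every library of a group and at least 100 in every library of another. The rule also covers members with an adjusted p under 0.05 and members whose groups do not overlap in opposite directions at 2 stages. Of the other repair genes, those with the smallest unadjusted p in each comparison are given. Overlap of exons was read from GENCODE M21 and promoters from RefSeq GRCm38.p6. Tables were made with Python 3.11.15, numpy 2.4.6, pandas 2.3.3 and matplotlib 3.10.9.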

Additional observations from a re-analysis of the deposited data

How the results depend on the processing

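With DESeq2 the members with an adjusted p under 0.05 were 6 for primordial NTY, 5 for primary NTY, 1 between stages of sham, 3 between stages of NTY and 2 for the difference, and with its Cook filter 4, 3, 1, 2 and 1. Every other alternative gave 0 members in each comparison it was run for; only the groups compared was not run for MII oocytes and the difference, nor the summed replicates for NTY in primordial follicles and MII oocytes. Over all genes DESeq2 gave 1201, 693, 29, 767, 1121 and 1216 in the order primordial NTY, primary NTY, MII NTY, stages in sham, stages in NTY and difference, and 750.0, 473, 29, 503, 689 and 742 with its Cook filter, against 1, 0, 0, 1, 0 and 1 by edgeR. Limma with voom gave 0, 67, 0, 143, 2 and 23 genes, and limma on log2(TPM + 1) gave 1, 3, 0, 4, 0 and 1. RLE normalization gave 2 genes and only the groups compared 6 for primordial NTY, and the filter on any count 11 for the difference. The cause was not tested.

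The median log2 fold change of the members with voom was -0.28, -2.17, -0.30, 1.83, 0.24 and -1.40 in that order. With at least 10 counts in every library, where 5, 8, 28, 9, 3 and 3 members were tested, it was -1.38, -0.40, -0.03, 0.10, -0.56 and 0.54. With a library left out it was -1.65 to -0.47 (primordial NTY), -2.22 to 0.076 (primary NTY), -0.18 to 0.09 (MII NTY), 0.26 to 1.52 (stages, sham), -0.29 to 2.13 (stages, NTY) and -1.43 to 1.35 (difference). Where a group is left with 2 libraries, these are assumed to vary like the others. Log2 fold changes of single members moved over the alternatives without a turn of sign. Rbbp8 ran from -12.66 to -4.46 (primordial NTY) and -9.51 to -4.1 (primary NTY). Nbn ran from 2.37 to 7.66 (stages, sham), Lig3 from -6.48 to -3.83 and Msh3 from -7.62 to -1.21 (stages, NTY). The difference ran from -10.03 to -2.75 for Msh3 and -9.09 to -2.35 for Brca1. The members with no overlap above the microdissected libraries were 9 to 12 of 40 with a library left out, beside 23.3% to 25.9% of all genes. The median number of members detected in microdissected libraries was 29 at 1 count and 14.5 at 1 TPM.

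With a replicate block the members called were 0 in every comparison and the genes called 1, 0, 0, 1, 0 and 1, the same counts as without it. The pairing check gave mean correlations of 0.0266, -0.0145, -0.0102, -0.00826 and -0.0172, and the replicate numbers gave no hint of pairs.

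Labels do not tie libraries to animals, so spread between libraries is all that the tests measure. Microdissected libraries of 15149564 counts or more lacked genes that replicates held at 100 counts, so a count of 0 there does not show absence; the cause was not tested. The strand setting of the counting was not given.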
